A study of Homo sapiens with 12 samples.

Results

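The genes described here encode enzymes that write, remove or act on chromatin marks, together with subunits of the complexes they work in. They cover DNA methylation, both Polycomb repressive complexes, histone deacetylases, histone demethylases, histone methyltransferases and chromatin remodelling. The 47 genes were taken by symbol from a fixed list, out of 19775 genes with a probe set of their own on the array. Of the 47, 44 had a probe set paired with that symbol alone, and BMI1, RNF2 and CBX8 were not analysed here. A further pair, TET1 and HDAC9, lay below the filter on dim genes, which left 42 genes to test. RNA came from Ls174T, a human colorectal carcinoma cell line, in 2 derivatives. Ls174T-pTER-β-catenin makes, on addition of doxycycline, a short hairpin RNA (shRNA) that targets β-catenin, and was grown for 72 h without or with doxycycline. Ls174T-L8 carries a dominant-negative Tcf4 transgene under the same inducer, and was grown for 24 h without or with it. Each of the 4 groups had 3 Affymetrix arrays, and the uninduced cells carry the construct as well. Nothing in the labels tells if the arrays in a group came from separate cultures or if each line is 1 clone, so p-values measure the spread between these arrays, which may be technical. The inducer was given only to cells with a construct in the samples used here, and construct, line and time after induction cannot be told apart.

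DNA methyltransferases place methyl groups on cytosines, and TET dioxygenases oxidise them. Polycomb repressive complex 2 (PRC2) methylates histone H3 at silent genes, and Polycomb repressive complex 1 (PRC1) reads that mark and ubiquitinates histone H2A. Histone deacetylases remove acetyl groups and mostly work inside corepressor complexes, while histone demethylases and methyltransferases set the marks of active and silent chromatin. In the intestinal crypt, Wnt signalling through β-catenin and Tcf4 keeps epithelial cells dividing. Several of these enzymes are known as genes of dividing cells, in which marks are copied onto newly made chromatin.

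The arrays were alike in scale, with median signals from 12.1 to 15.3 (arbitrary units of the MAS5 algorithm, linear). Correlations between arrays of a group ran from 0.958 to 0.969. The brightest CTNNB1 probe set, for β-catenin, had geometric means of 3781 uninduced and 155 after shRNA induction. For TCF7L2, the gene of Tcf4, the probe set with the largest rise went from 106 to 1221 with the transgene, so both constructs were seen in the RNA. The brightest TCF7L2 probe set rose in both lines, from 724 to 1208 with the shRNA and from 692 to 1139 with dominant-negative Tcf4. All 11 colorectal epithelial markers lay above the filter. Their summed signal was 18745 to 21263 in uninduced and 35531 to 40204 in induced shRNA arrays, and 25422 to 28230 and 36536 to 40923 in the dominant-negative Tcf4 line. The markers did not all rise: with the shRNA 7 rose, KRT19 (2.61), LGALS4 (2.40) and CDH17 (2.27) the most, and GPA33 fell by 0.48. With dominant-negative Tcf4 5 rose, among them LGALS4 (2.29), GPA33 (1.71) and KRT19 (1.58), and EPCAM, CDX1 and CDX2 did not pass in either induction. Of 7 fibroblast markers 3 lay above the filter, with COL3A1 at 9.7 or less on every array. Of these 3 LUM rose in both inductions, from a geometric mean of 4.52 to 17.3 and from 21.8 to 99.1 (adjusted p = 0.0028 and 0.0011), while COL1A1 (-0.12 and 0.00) and DCN (0.55 and -0.45) did not pass. The sum over the 7 was 85.2 to 127 uninduced and 90.8 to 156 induced in the shRNA line, and 105 to 124 and 181 to 202 in the other line. Leukocyte markers (4 with a probe set) summed to at most 47.4 and endothelial markers (4) to at most 64.8, with PTPRC never above 10.7. The ratio of 3′ to 5′ signal of the ACTB control, a measure of RNA integrity, was 1.25 to 1.35 in uninduced and 1.13 to 1.16 in induced dominant-negative Tcf4 arrays, and 1.29 to 1.39 over both shRNA groups. The epithelial sum and LUM moved with both inductions, and the fibroblast sum and the ACTB ratio with dominant-negative Tcf4, and their part in the results was not tested.

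Both inductions lowered more of these genes than they raised. With the β-catenin shRNA 20 of the 42 genes changed, 16 lower and 4 higher, where 34% of all 12386 genes tested changed, 17.4% lower and 16.6% higher. With dominant-negative Tcf4 19 changed, 16 lower and 3 higher, against 36% of all genes, 20% lower and 16% higher. A call is an adjusted p under 0.05 from limma, with the Benjamini-Hochberg adjustment over all genes tested, and changes are log2 values, induced minus uninduced, ± standard error. The median change of the 42 genes was -0.29 for the shRNA and -0.21 for dominant-negative Tcf4, while that of all genes was 0.02 and -0.05. In both inductions 12 of the 42 fell (28.6%, against 9.68% of all genes), 2 rose (4.76% against 8.4%) and none moved in opposite directions (against 1.55%). The 3 induced arrays did not overlap the 3 uninduced ones in 27 genes with the shRNA (20 lower, 7 higher), where this held for 44.6% of all genes (22.2% lower, 22.4% higher). With dominant-negative Tcf4 it held in 23 (18 lower, 5 higher), against 47.1% of all genes (26% lower, 21.1% higher). In bulk RNA, fewer cells of a type and less RNA per cell cannot be told apart.

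**Figure D1:**
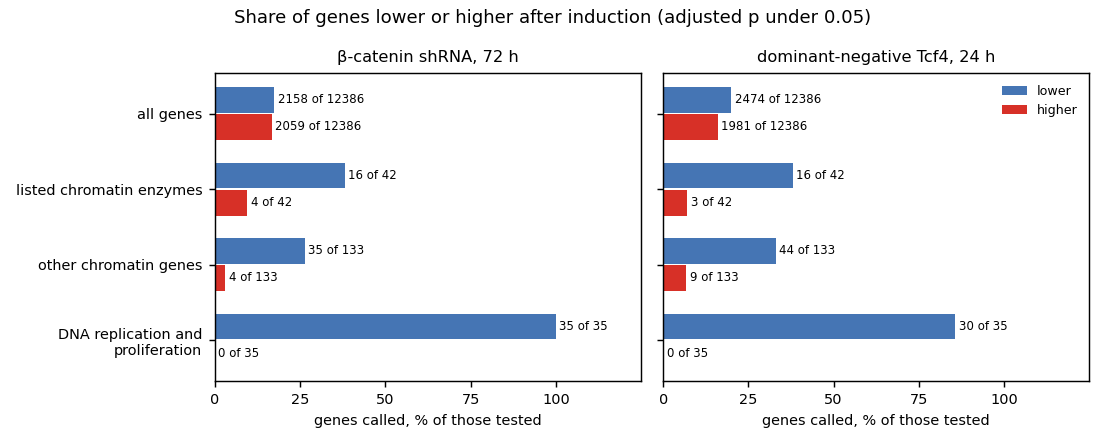
Share of tested genes that fell (blue) or rose (red) in each induction, in percent of the genes tested in each set, with counts beside the bars. The listed chromatin enzymes had 16 of 42 lower in each induction, of which 12 were lower in both. Their share lay between that of all genes and that of DNA replication and proliferation genes (35 of 35 and 30 of 35 lower).

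The 12 genes that fell in both inductions were DNMT1, EZH2, RBBP7, CBX2, HDAC2, HDAC3, KDM1A, KDM2B, SUV39H1, SUV39H2, EHMT2 and HELLS, and the 2 that rose in both were KDM5B and KDM6B. Their promoters were searched because these genes moved together. RefSeq windows of 300 bases (250 before the start site and 50 from it on, GRCh38.p14) were available for 11 of the 12. The letters searched on both strands were an E2F core (TTCCCGC or TTGGCGC or TTCGCGC or TTGCCGC), the kind of site that E2F factors bind in genes of the S phase, and a TCF core (CTTTGAT or CTTTGAA), the kind bound by Tcf4. An E2F core stood in a window of 5 of these 11 genes (45.5%), of 6 of 29 other tested members (20.7%) and of 24.3% of the 10088 tested genes with a window. Counted by window, the contrast was smaller, with 5 of 17 (29.4%), 9 of 50 (18%) and 18.6%. A TCF core stood in 0 of 11, in 3 of 29 and in 6.07% of tested genes. A shorter cell cycle element (TTTGAA), which overlaps the second TCF core, stood in 1 of 11, 5 of 29 and 13.9%, and a CCAAT box in 5 of 11, 11 of 29 and 43.4%. A match is a description of the letters and no evidence of binding. For the 5 genes with an E2F core the bases around it are printed 5′ to 3′ on the gene's strand, with the core in capitals, to let the letters be compared among genes that fell together. HELLS has a pair of such cores, and the first of the lines shows both within the 150 bases before its start site.
HELLS (chr10:94545638-94545787, plus strand): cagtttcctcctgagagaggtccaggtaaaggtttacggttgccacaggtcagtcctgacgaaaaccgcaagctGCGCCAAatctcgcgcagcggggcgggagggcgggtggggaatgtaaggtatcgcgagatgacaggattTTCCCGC
DNMT1 (chr19:10194937-10194966, minus strand): catcggtttccGCGCGAAaagccggggcgc
EZH2 (chr7:148884271-148884300, minus strand): ggctgccgcgtTTGGCGCtcggtccggtcg
KDM1A (chr1:23019455-23019484, plus strand): cgggagcgcgcTTGGCGCgtgcgtacgcga
RBBP7 (chrX:16869938-16869967, minus strand): gccggcgaaagGCGCGAAttggcgtgcgga

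Among the DNA methyltransferases, DNMT1, the maintenance enzyme that copies methylation onto new strands, fell in both lines. Its signals were 1118, 992 and 1023 in uninduced shRNA cells and 488, 591 and 559 after induction. In the dominant-negative Tcf4 line they were 662, 732 and 705, and 428, 506 and 373. Every induced array lay below every uninduced array of its line, and DNMT1 fell by 0.94 ± 0.11 (1.92-fold, adjusted p = 6.47e-06) and by 0.69 ± 0.11 (1.62-fold, adjusted p = 1.33e-04). UHRF1, which brings DNMT1 to newly copied DNA and is no member of the list, also fell, from 1014, 1066 and 1114 to 346, 346 and 328 with the shRNA, and from 1540, 1530 and 1662 to 791, 777 and 707 with dominant-negative Tcf4. Its changes were -1.65 ± 0.08 and -1.06 ± 0.08, and they differed between the lines (adjusted p = 0.0022).

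Of the de novo methyltransferases, DNMT3B passed in one induction and DNMT3A in neither. DNMT3B had a change of 0.04 ± 0.18 with the shRNA (adjusted p = 0.89). In the dominant-negative Tcf4 line its signals went from 78.2, 77.1 and 69.1 to 52.4, 45.6 and 57.9, a decrease of 0.53 ± 0.18 (adjusted p = 0.03). That call was not kept without uninduced replicate 1 (-0.50) or 2 (-0.51) or induced replicate 1 (-0.54) or 2 (-0.44), or with no filter on dim genes (adjusted p = 0.084), and its adjusted p was at most 0.11 over all alternatives. DNMT3A was dim, between 5.2 and 27.3 on the 12 arrays, and its changes of 1.05 ± 0.52 and 0.64 ± 0.52 did not pass (adjusted p = 0.14 and 0.38). Of the TET genes, TET2 had signals of 51.9, 54.2 and 69.9 uninduced and 92.4, 82.6 and 74.4 with the shRNA, a rise of 0.51 ± 0.18 (adjusted p = 0.034). The rise missed the threshold with each array centred on its median (0.46), with no filter, when only the shRNA arrays were fitted, and without uninduced replicate 1 (0.43) or 2 (0.46) or induced replicate 1 (0.43) or 2 (0.51), with adjusted p-values up to 0.12. With dominant-negative Tcf4 TET2 had 0.38 ± 0.18 (adjusted p = 0.11), from 63.3, 51.3 and 50 to 76.1, 67.7 and 69.4. TET3 had 0.32 ± 0.18 and -0.42 ± 0.18, neither of which passed, and TET1 lay between 0.7 and 19.5 on all arrays.

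In PRC2 the catalytic subunit EZH2 fell in both lines, and its close relative EZH1 did not pass in either. EZH2 signals were 338, 329 and 336 in uninduced and 245, 202 and 194 in induced shRNA cells, a decrease of 0.65 ± 0.11 (1.57-fold, adjusted p = 2.18e-04). With dominant-negative Tcf4 they went from 464, 484 and 449 to 266, 244 and 220, a decrease of 0.94 ± 0.11 (1.92-fold, adjusted p = 6.58e-06). The groups did not overlap in either line. EZH1, which is the form of resting cells, had 0.00 ± 0.20 in the shRNA line and 0.35 ± 0.20 in the other (adjusted p = 0.99 and 0.21), with 95% intervals from -0.43 to 0.43 and from -0.08 to 0.78.

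Among the other PRC2 subunits, RBBP7 fell in both inductions. EED, which binds the methyl mark, had 678, 641 and 569 before and 421, 524 and 441 after shRNA induction, a decrease of 0.45 ± 0.11 (adjusted p = 0.0042), and -0.17 ± 0.11 with dominant-negative Tcf4 (adjusted p = 0.26). SUZ12, a scaffold of the complex, did not pass in either induction (0.06 ± 0.19 and -0.44 ± 0.19, adjusted p = 0.84 and 0.095). The histone-binding subunit RBBP7 went from 1897, 1959 and 1678 to 1373, 1477 and 1487 and from 1534, 1613 and 1609 to 1319, 1417 and 1287. These were decreases of 0.35 ± 0.08 (adjusted p = 0.0024) and 0.24 ± 0.08 (adjusted p = 0.024). The second missed the threshold with median centring (adjusted p = 0.14), without a variance trend (adjusted p = 0.055), and without uninduced replicate 2 (-0.23) or 3 (-0.23) or induced replicate 1 (-0.23) or 3 (-0.21). RBBP4, its paralog, had -0.19 ± 0.07 with the shRNA (adjusted p = 0.059) and fell by 0.38 ± 0.07 with dominant-negative Tcf4 (adjusted p = 7.88e-04). The cofactor JARID2 had 0.00 ± 0.15 and -0.10 ± 0.15. Of the 7 PRC2 genes 3 fell and none rose in each induction (42.9% lower, against 17.4% and 20% of all genes).

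In PRC1 the chromobox proteins, which read the Polycomb mark, CBX2 fell in both inductions. CBX2 signals were 185, 194 and 166 in uninduced and 74.3, 82.9 and 72.8 in induced shRNA cells. In the other line they were 257, 292 and 255, and 96.6, 161 and 113. CBX2 thus fell by 1.24 ± 0.16 (2.37-fold, adjusted p = 1.56e-05) and by 1.15 ± 0.16 (2.22-fold, adjusted p = 3.59e-05). CBX7, another chromobox protein, had 64.8, 67.2 and 54.7 before and 45.6, 1.6 and 16.5 after shRNA induction. All 3 induced values were below the uninduced ones, but they spread widely. CBX7 fell by 2.54 ± 0.75 (adjusted p = 0.014). The decrease was 1.18 without induced replicate 2 and 1.94 when 3.5 was added to each signal before log2, and it did not pass without a variance trend (adjusted p = 0.059). With dominant-negative Tcf4 CBX7 had -0.54 ± 0.75 (adjusted p = 0.63), from 53.1, 62.3 and 47.1 to 35.7, 37.1 and 38.4. CBX6 (-0.36 ± 0.16 and -0.20 ± 0.16), the ubiquitin ligase RING1 (0.12 ± 0.11 and 0.07 ± 0.11) and PHC1 (-0.30 ± 0.26 and 0.05 ± 0.26) did not pass in either induction.

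**Figure D2:**
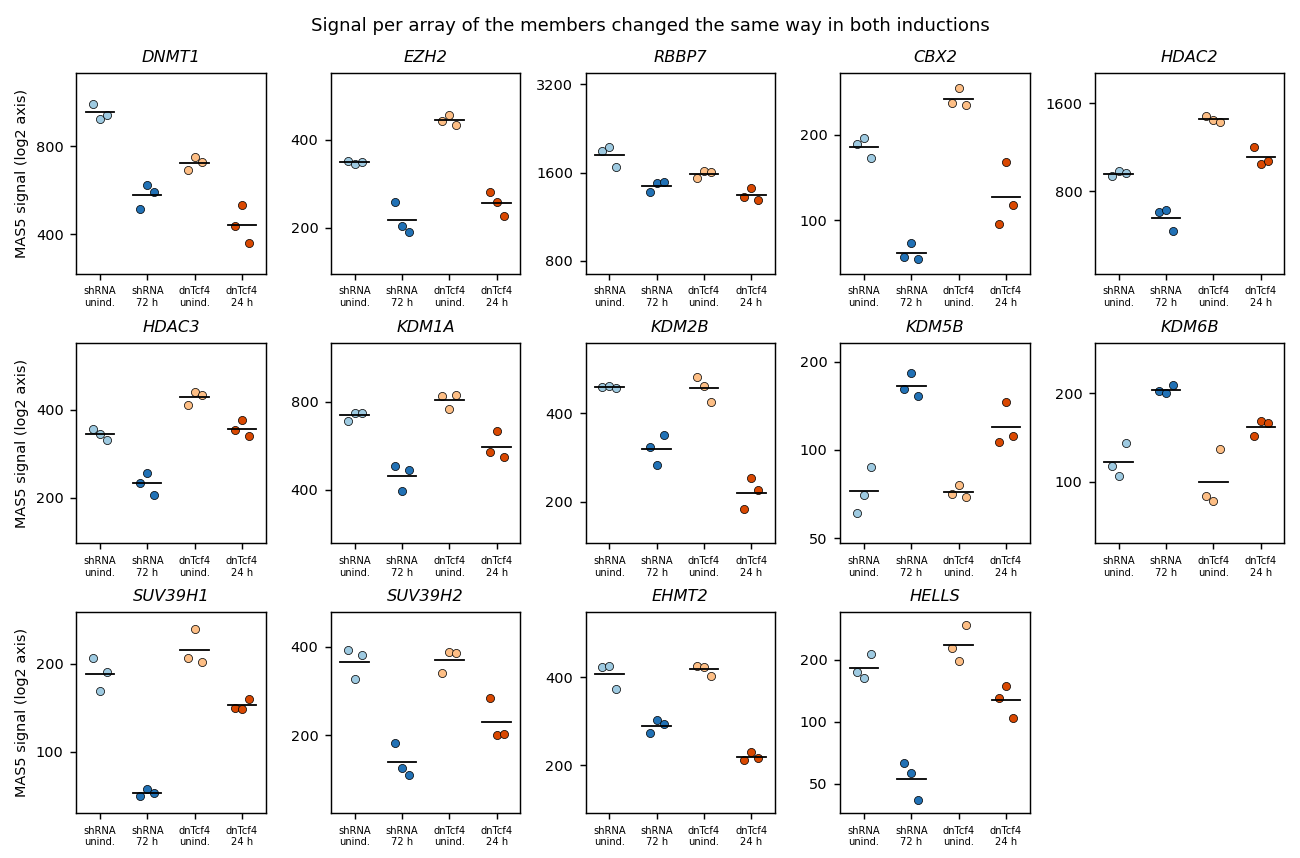
MAS5 signal of each array (points, on a log2 axis that differs between panels) for the 14 genes that changed the same way in both inductions, with the geometric mean of each group of 3 arrays (line). In all 12 genes that fell and both that rose, the induced arrays lay apart from the uninduced arrays of the same line. The genes were chosen by their calls on these same arrays, so this separation is no independent evidence of a change. Among all genes tested, such separation was found for 44.6% in the shRNA line and 47.1% in the other line.

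Histone deacetylases split by member. HDAC2, a class I enzyme of the Sin3, NuRD and CoREST complexes, had signals of 904, 936 and 921 before and 679, 691 and 587 after shRNA induction. In the other line it had 1443, 1404 and 1378, and 1132, 992 and 1017. It fell by 0.50 ± 0.09 (adjusted p = 2.23e-04) and by 0.43 ± 0.09 (adjusted p = 8.22e-04), with no overlap of the groups. HDAC3, the enzyme of the NCoR and SMRT complexes, fell by 0.56 ± 0.10 with the shRNA, from 342, 329 and 316 to 225, 243 and 205. With dominant-negative Tcf4 it went from 415, 461 and 449 to 340, 368 and 324, a decrease of 0.36 ± 0.10 (adjusted p = 0.011) that just missed the threshold with median centring (adjusted p = 0.053).

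HDAC1, which shares its complexes with HDAC2, was called higher in one induction. It had 2580, 2402 and 2303 before and 2281, 2386 and 2370 after shRNA induction (-0.05 ± 0.07, adjusted p = 0.65). With dominant-negative Tcf4 it rose by 0.33 ± 0.07 (1.25-fold, adjusted p = 0.0016), from 2786, 2762 and 2621 to 3217, 3621 and 3412. HDAC6, a mostly cytoplasmic deacetylase of tubulin, rose with the shRNA by 0.73 ± 0.17 (adjusted p = 0.0025), from 142, 104 and 149 to 212, 201 and 236. In the other line its signals overlapped, 124, 142 and 128 before and 116, 122 and 172 after (0.03 ± 0.17, adjusted p = 0.91).

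HDAC4, a class IIa enzyme, had 74.8, 88.0 and 82.9 before and 43.3, 69.5 and 33.4 after shRNA induction, a decrease of 0.81 ± 0.27 (adjusted p = 0.026). It was no longer called without uninduced replicate 2 (-0.76) or 3 (-0.80) or induced replicate 1 (-0.76) or 3 (-0.57), nor without a variance trend, with adjusted p-values up to 0.13. SIRT1, a deacetylase that uses NAD, fell by 0.50 ± 0.18 (adjusted p = 0.042), from 118, 117 and 139 to 113, 91.5 and 65.0. This call had the highest adjusted p of those in the shRNA line. It was lost with no filter, without a variance trend, when only the shRNA arrays were fitted, and without any uninduced replicate (-0.54, -0.55 and -0.42 for replicates 1 to 3) or without induced replicate 2 (-0.53) or 3 (-0.29). It also just missed the threshold without uninduced replicate 1 or 2 of the dominant-negative Tcf4 line (-0.50 both times), and its adjusted p reached 0.22. With dominant-negative Tcf4 HDAC4 had -0.41 ± 0.27 and SIRT1 had -0.18 ± 0.18, and neither passed. HDAC5, HDAC7 and HDAC11 did not pass in either induction, with changes between -0.54 and 1.12, and HDAC9 lay at 12.2 or less on every array. In all, 4 of 9 tested deacetylases fell and 1 rose with the shRNA (44.4% and 11.1%, against 17.4% and 16.6% of all genes). With dominant-negative Tcf4 2 fell and 1 rose (22.2% and 11.1%), which is near the 20% and 16% of all genes.

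Histone demethylases moved both ways. KDM2B, which binds unmethylated CpG islands and recruits a form of PRC1, had 494, 496 and 490 before and 307, 267 and 337 after shRNA induction. In the other line it went from 534, 498 and 437 to 188, 241 and 219. The decreases were 0.71 ± 0.12 (1.63-fold, adjusted p = 1.96e-04) and 1.18 ± 0.12 (2.27-fold, adjusted p = 1.14e-06), the latter the largest decrease of the 42 genes in that line. KDM1A (LSD1), which removes methyl groups at enhancers within CoREST, fell from 686, 734 and 734 to 483, 397 and 467, and from 839, 755 and 841 to 538, 633 and 520. These were decreases of 0.68 ± 0.10 (adjusted p = 6.84e-05) and 0.53 ± 0.10 (adjusted p = 6.53e-04).

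The 2 genes that rose in both inductions were demethylases as well. KDM5B (JARID1B), which removes the methyl mark of active promoters, had 60.9, 70.3 and 87.7 before and 162, 183 and 153 after shRNA induction. With dominant-negative Tcf4 it had 70.9, 75.7 and 69.0, and 106, 146 and 111. It rose by 1.2 ± 0.17 (2.29-fold, adjusted p = 3.02e-05) and by 0.74 ± 0.17 (1.67-fold, adjusted p = 0.0021), without overlap. KDM6B (JMJD3), which erases the PRC2 mark, rose from 113, 104 and 135 to 203, 201 and 213, and from 89.1, 85.9 and 129 to 143, 161 and 158. Its rises were 0.82 ± 0.16 (adjusted p = 6.05e-04) and 0.63 ± 0.16 (adjusted p = 0.0048). KDM6A (UTX), the other eraser of that mark, had 0.07 ± 0.33 and 0.24 ± 0.33, and KDM4A had 0.18 ± 0.18 and 0.27 ± 0.18, and neither passed.

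The 3 members that place the silencing mark of heterochromatin on histone H3, or the same mark elsewhere, fell in both inductions. SUV39H1 signals were 209, 162 and 187 in uninduced and 70.4, 74.8 and 72.6 in induced shRNA cells. In the dominant-negative Tcf4 line they were 208, 263 and 203, and 142, 140 and 152. The decreases were 1.35 ± 0.14 (2.55-fold, adjusted p = 1.01e-06) and 0.63 ± 0.14 (1.55-fold, adjusted p = 0.0016). SUV39H2, its paralog, fell from 389, 310 and 374 to 188, 154 and 146, and from 326, 384 and 380 to 268, 201 and 202, by 1.14 ± 0.14 (adjusted p = 1.10e-05) and 0.71 ± 0.14 (adjusted p = 9.17e-04). EHMT2 (G9a), which methylates the same residue at silent genes, fell from 432, 437 and 364 to 258, 285 and 277. With dominant-negative Tcf4 it went from 438, 435 and 405 to 209, 222 and 211. EHMT2 fell by 0.59 ± 0.10 (1.5-fold, adjusted p = 2.73e-04) and by 0.99 ± 0.10 (1.99-fold, adjusted p = 1.49e-06). The methyltransferases of active chromatin did not pass: KMT2A (MLL1) had -0.32 ± 0.16 and -0.23 ± 0.16, KMT2D -0.34 ± 0.15 and 0.16 ± 0.15, and SETD2 -0.15 ± 0.18 and 0.13 ± 0.18.

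HELLS (LSH), a remodelling ATPase needed for DNA methylation of repeats, had the largest decrease of the 42 genes in the shRNA line apart from CBX7. Its signals were 174, 164 and 213 before and 63.0, 56.3 and 41.9 after shRNA induction. In the other line they were 228, 198 and 294, and 131, 149 and 105. HELLS fell by 1.78 ± 0.19 (3.44-fold, adjusted p = 1.78e-06) and by 0.90 ± 0.19 (1.86-fold, adjusted p = 0.0013). SMARCA4 (BRG1), the ATPase of SWI/SNF complexes, fell with dominant-negative Tcf4 by 0.51 ± 0.10 (adjusted p = 6.77e-04), from 1327, 1300 and 1309 to 812, 1080 and 891. With the shRNA it had -0.17 ± 0.10 (adjusted p = 0.2), and its signals of 1135, 1152 and 1046 before and 963, 1067 and 928 after overlapped. ARID1A, a DNA-binding subunit of SWI/SNF, had -0.41 ± 0.13 with dominant-negative Tcf4 (adjusted p = 0.025), a call that was lost without uninduced replicate 1 (-0.37) or 2 (-0.39) or induced replicate 1 (-0.27) or 2 (-0.37), without a variance trend, and when the arrays of that line were fitted alone, with adjusted p-values up to 0.13. Its groups overlapped, 360, 354 and 319 before and 216, 245 and 331 after, and with the shRNA it had 0.01 ± 0.13. SMARCA2 (BRM), the alternative ATPase, had 0.20 ± 0.14 and 0.02 ± 0.14, and neither passed.

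**Figure D3:**
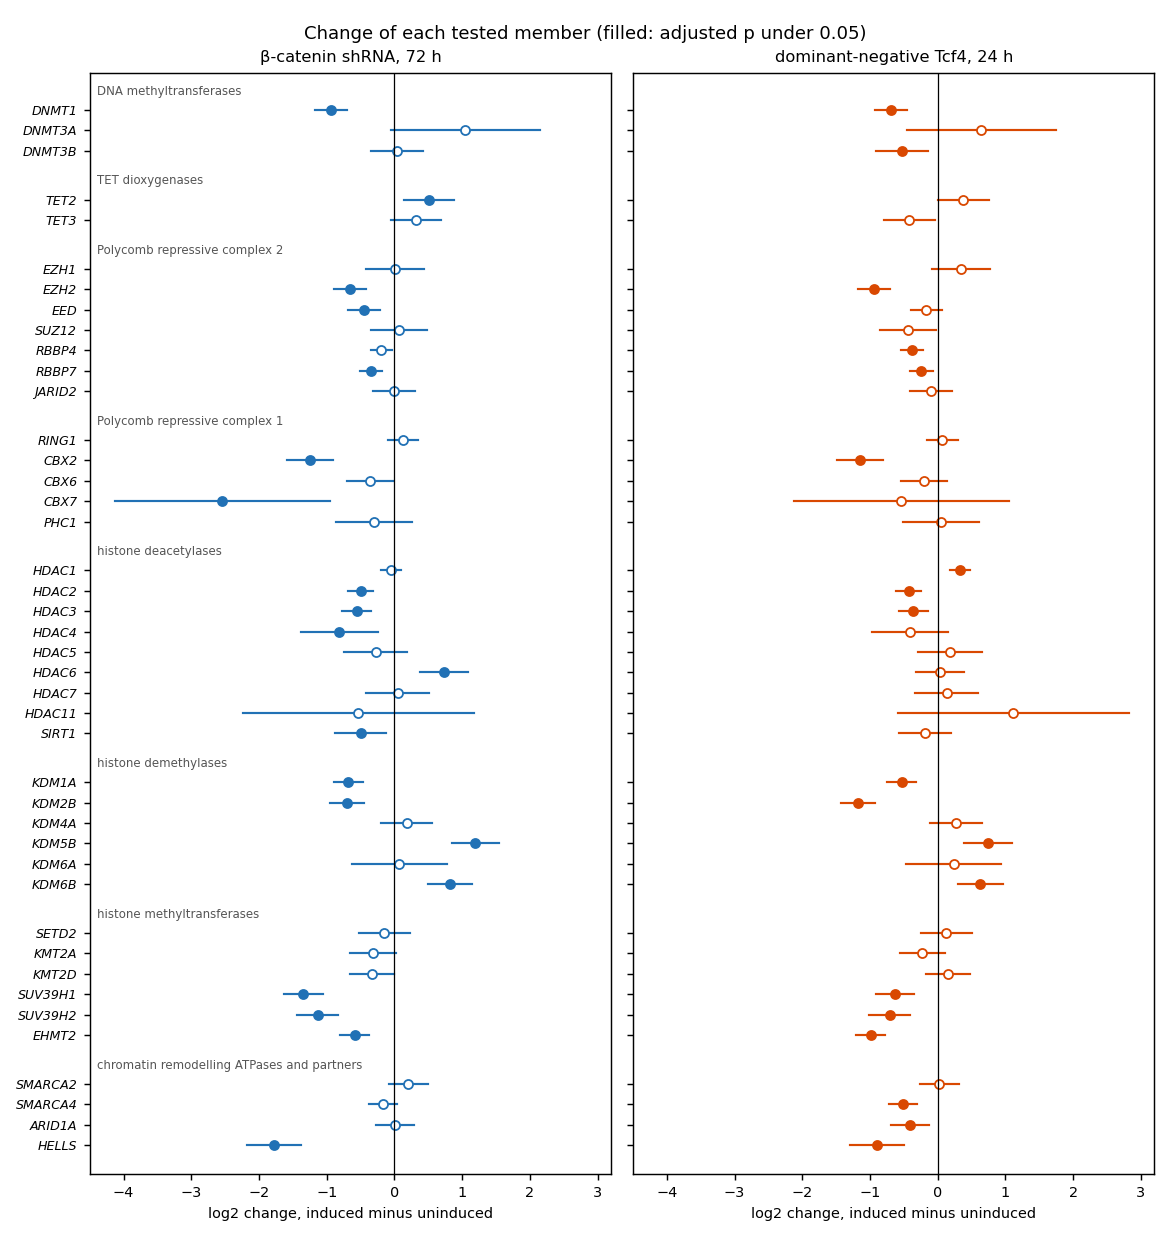
Log2 change of each of the 42 tested genes (induced minus uninduced, 3 arrays against 3) with its 95% interval, for the β-catenin shRNA (left) and dominant-negative Tcf4 (right), by role. Filled points passed an adjusted p under 0.05, and the 12 genes that fell in both panels include SUV39H1, SUV39H2, EHMT2, EZH2 and DNMT1.

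The difference of the changes (shRNA minus dominant-negative Tcf4) passed for 3 of the 42 genes, all lower, where 17.6% of all genes passed, 8.61% lower and 9.03% higher. The direction of this split depended on the settings, with 4 higher and 3 lower under a stricter filter, 3 and 3 with array weights, 2 and 3 with an offset, and 3 and 2 without dominant-negative Tcf4 induced replicate 2. SUV39H1 fell further with the shRNA, with a difference of -0.72 ± 0.19 (adjusted p = 0.016), and so did HELLS, with -0.89 ± 0.27 (adjusted p = 0.03). For HDAC1 the difference was -0.37 ± 0.10 (adjusted p = 0.015), with -0.05 for the shRNA and 0.33 for dominant-negative Tcf4. The call of HELLS was not kept without shRNA uninduced replicate 3 (-0.77) or induced replicate 3 (-0.72), or without dominant-negative Tcf4 uninduced replicate 1 (-0.86) or 2 (-0.76) or induced replicate 1 (-0.86) or 2 (-0.77), nor without a variance trend, with adjusted p-values up to 0.086. That of HDAC1 was lost with median centring (-0.42, adjusted p = 0.098) and without a variance trend (adjusted p = 0.055), the highest over its alternatives being 0.098.

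The next smallest adjusted p-values of this difference belonged to HDAC6 (0.70 ± 0.24, adjusted p = 0.0503), TET3 (0.74 ± 0.25, adjusted p = 0.051) and KDM2B (0.48 ± 0.17, adjusted p = 0.062), all just short of the threshold. TET3 signals were 99.7, 83.4 and 102 before and 121, 126 and 108 after shRNA induction, and 144, 131 and 110 before and 78.3, 127 and 87.6 after dominant-negative Tcf4. The times of 72 h and 24 h differ between the lines along with the construct. For the remaining members the difference did not pass, which does not show that they responded alike. For EZH2 the interval ran from -0.05 to 0.62, and for DNMT1 from -0.58 to 0.09.

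Before induction the lines differed in 11 of the 42 genes, 6 higher and 5 lower in the dominant-negative Tcf4 line, where 37.3% of all genes differed, 16.9% higher and 20.5% lower. The 3 and 3 arrays did not overlap in 20 of the 42 (10 higher, 10 lower), against 49.9% of all genes (22.9% higher, 27% lower). HDAC2 was 1.53-fold higher there (0.61 ± 0.09, adjusted p = 2.93e-05), with 1378 to 1443 against 904 to 936. DNMT1 was lower by 0.58 ± 0.11 (log2 change -0.58, adjusted p = 6.52e-04), and EZH2 higher by 0.48 ± 0.11 (adjusted p = 0.0028). SUZ12 was 1.93-fold higher (0.95 ± 0.19, adjusted p = 0.0011), with 442, 408 and 510 against 167, 239 and 319. DNMT3B, CBX2 and HDAC3 were also higher, by 0.71, 0.56 and 0.42. PHC1 had a log2 difference of -1.13, KMT2A one of -0.52, and RBBP4 and RBBP7 one of -0.22 each. A dimmer probe set of CBX2 was called the other way (-1.06, adjusted p = 0.006), and so was one of KMT2A (1.2, adjusted p = 0.0085). The dimmer probe set of PHC1 was called the same way with a larger difference (-3.61, adjusted p = 2.98e-05). Its geometric means were 111 in the shRNA line and 9.06 in the dominant-negative Tcf4 line. These limma p-values are adjusted over all probe sets. The direction of the line difference thus depends on the probe set for CBX2 and KMT2A. Centring arrays on their medians moved the median difference of all genes from -0.03 to 0.09, and with it the share of higher genes among all calls from 45.2% to 59.3%. For the members the split then became 8 higher and 2 lower, and RBBP4 (-0.10), RBBP7 (-0.10) and KMT2A (-0.40) were no longer called. RBBP4 and RBBP7 were also lost with no filter and without a variance trend, and RBBP4 with quantile normalization (-0.17). RBBP4 was also lost with 5 of the uninduced arrays left out one at a time (-0.18 to -0.23), RBBP7 likewise with 5 (-0.17 to -0.23), and KMT2A without replicate 3 of the shRNA line (-0.45) or of the dominant-negative Tcf4 line (-0.38). The call of CBX2 was lost without dominant-negative Tcf4 replicate 2 (0.50).

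Several genes are covered by more than 1 probe set, and each was also read by itself, with p-values adjusted over all probe sets. Of the 27 genes with more than 1 probe set above the filter, none had probe sets called in opposite directions in either induction. All of a gene's probe sets were called the same way in 3 genes in the shRNA line and in 1 in the other, none was called in 17 and 18, and the remaining genes were called by some probe sets and not by others. CBX2 was called by 1 of its 4 probe sets in each induction, with changes from -1.94 to 0.26 and from -1.15 to -0.44, and EHMT2 by 1 of 2. Of 5 HELLS probe sets 3 fell with the shRNA (-1.78, -1.93 and -1.69), and 1 of these passed for the difference between the lines (-1.25, adjusted p = 0.011). All 5 KDM6B probe sets rose with the shRNA, by 0.81 to 1.29, and 3 of them passed with dominant-negative Tcf4 (0.63, 0.87 and 0.90). All 3 KDM5B probe sets above the filter rose in both, by 0.60 to 1.2 and 0.71 to 0.88. Of 7 SMARCA4 probe sets above the filter 6 fell with dominant-negative Tcf4, by 0.51 to 0.74, and none passed with the shRNA (-0.30 to 0.14), and 1 passed for the difference (0.58, adjusted p = 0.042). For RBBP4 the brightest probe set fell by 0.38 with dominant-negative Tcf4, while 3 dimmer ones fell by 1.10, 1.08 and 1.26, and none of these passed with the shRNA (-0.09, -0.18 and -0.36). One of these dimmer probe sets also passed for the difference between the lines (1.0, adjusted p = 0.041). RING1 (0.69) and SMARCA2 (0.45) each had 1 dimmer probe set that rose with the shRNA while the brightest did not pass.

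**Figure D4:**
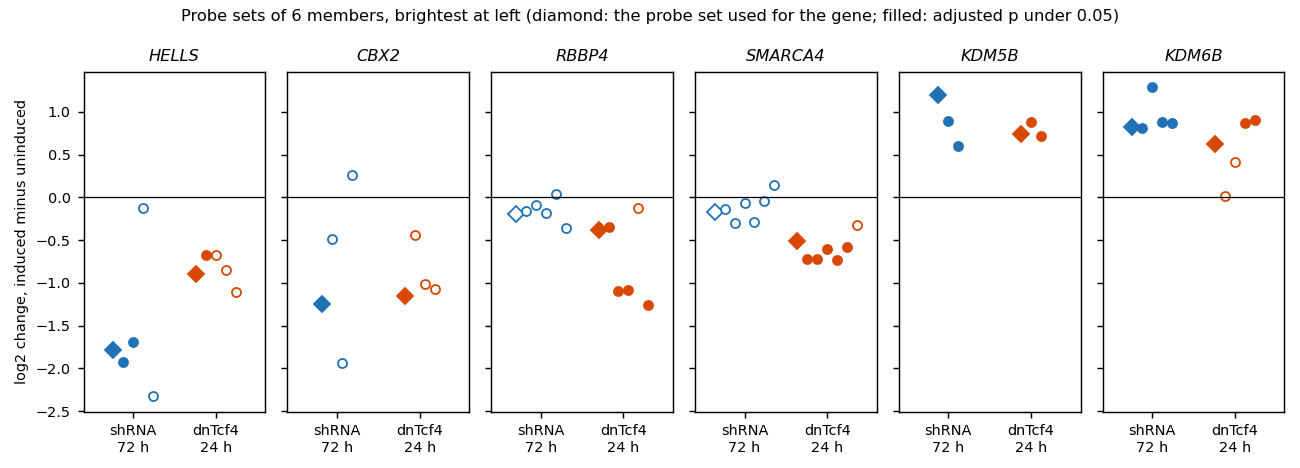
Log2 change (induced minus uninduced) of every probe set above the filter for 6 genes, in order of brightness from the left, in the shRNA (blue) and dominant-negative Tcf4 (orange) lines. KDM5B and KDM6B lay above 0 throughout, 6 of 7 SMARCA4 probe sets passed with dominant-negative Tcf4, and 3 RBBP4 probe sets fell further than the brightest one.

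Other chromatin genes were read beside these from lists written by role. Of 133 tested, 35 fell and 4 rose with the shRNA (26.3% and 3.01%, against 17.4% and 16.6% of all genes). With dominant-negative Tcf4 44 fell and 9 rose (33.1% and 6.77%, against 20% and 16% of all genes). Histone chaperones that load new nucleosomes behind the replication fork were among those that fell. ASF1B fell by 1.81 ± 0.10 and 0.94 ± 0.10, and CHAF1B, a subunit of chromatin assembly factor 1, by 1.52 ± 0.15 and 0.91 ± 0.15. CHAF1A, its large subunit, fell by 1.69 ± 0.12 with the shRNA and by 0.63 ± 0.12 in the other line. CHD7, a remodeller of the CHD family, also fell in both (-0.58 and -0.75). Of the 31 other remodellers and histone chaperones 12 fell and none rose in the shRNA line (38.7% lower). In the other line 16 fell and 1 rose (51.6% and 3.23%).

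Among 19 other Polycomb genes 7 fell and none rose with the shRNA (36.8% lower, against 17.4% of all genes). With dominant-negative Tcf4 8 fell and 1 rose (42.1% and 5.26%, against 20% and 16%). PHF19, a PRC2 accessory protein, fell by 1.10 ± 0.11 and 0.72 ± 0.11, and AEBP2, another, fell in both as well (-0.79 and -0.46). SCMH1 fell with the shRNA (-0.49) and had -0.22 in the other line, which did not pass. PCGF6, a PRC1 subunit, and SCML1 fell with dominant-negative Tcf4 (-0.91 and -0.97), and their changes of -0.44 and 0.31 with the shRNA did not pass. Of 12 other DNA methylation genes 2 fell and 2 rose with the shRNA (16.7% each), near the 17.4% and 16.6% of all genes. With dominant-negative Tcf4 3 fell and 2 rose (25% and 16.7%, against 20% and 16%). Besides UHRF1, TDG, which excises oxidised methylcytosine, rose by 0.75 and ZBTB4 by 0.43 with the shRNA, and neither passed in the other line (-0.06 and 0.22). With dominant-negative Tcf4 GADD45A rose by 1.28 ± 0.13, and MBD3, a NuRD subunit, fell by 1.0 ± 0.10, and their changes with the shRNA did not pass (0.11 and -0.24).

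Of 26 other histone methyltransferases and partner subunits such as MEN1, 6 and 8 fell and none rose (23.1% and 30.8% lower, against 17.4% and 20% of all genes). NSD2 fell by 1.27 ± 0.11 and 0.69 ± 0.11, and MEN1 (-0.80 and -0.63) and CARM1 (-0.76 and -0.55) fell in both inductions too. So did the arginine methyltransferase PRMT1 (-0.27 and -0.65), while PRMT5 fell with dominant-negative Tcf4 (-0.70) and did not pass with the shRNA (-0.20). Of 15 other genes listed as histone demethylases, not all of them chiefly known as such, 2 fell and none rose with the shRNA (13.3% lower, under the 17.4% of all genes). These were PHF8 (by 0.93) and RIOX2 (by 0.54), and PHF8 did not pass in the other line (-0.11). With dominant-negative Tcf4 3 fell and 1 rose (20% and 6.67%, against 20% and 16% of all genes). KDM7A fell by 1.49 ± 0.16, RIOX2 by 0.75 and RIOX1 by 0.60. KDM7A and RIOX1 did not pass with the shRNA (0.17 and 0.07). Of 10 acetyltransferases 3 fell in each induction (30%, against 17.4% and 20% of all genes), among them HAT1 (-1.01 and -0.54) and KAT7 (-0.68 and -0.58) in both. KAT6A fell by 0.31 with the shRNA and had 0.09 in the other line. With dominant-negative Tcf4 KAT2A (GCN5) fell by 1.03 ± 0.15, while KAT2B (PCAF) rose by 0.77 ± 0.27, and neither passed with the shRNA (-0.27 and -0.01). Of 20 other deacetylases and corepressor partners 3 fell and 2 rose with the shRNA, and 3 fell and 3 rose with dominant-negative Tcf4. The 15% lower in each is under the 17.4% and 20% of all genes. SAP30 fell in both (-0.69 and -0.61). MTA1 fell by 0.77 with dominant-negative Tcf4 and did not pass with the shRNA (-0.31). SIRT2 rose in both, by 0.76 ± 0.18 and 1.31 ± 0.18, and CHD3 rose by 0.49 with the shRNA and did not pass in the other line (0.05).

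Proliferation genes moved in the same direction as the chromatin genes that fell. All 35 tested genes of DNA replication and proliferation fell with the shRNA (100%, against 17.4% of all genes), with a median of -1.54. With dominant-negative Tcf4 30 fell (85.7%, against 20% of all genes), with a median of -0.83. GINS4, GINS2 and MCM10 led with the shRNA (-2.19, -2.04 and -2.02), and MCM2, MCM5 and MCM7 with dominant-negative Tcf4 (-1.18, -1.14 and -1.09). The part of this change in those of the chromatin genes was not tested. Of 13 Wnt and TCF target genes 12 fell with the shRNA (median -1.2) and 10 with dominant-negative Tcf4 (median -1.84). These are 92.3% and 76.9%, against 17.4% and 20% of all genes. The decreases were led in both by ASCL2 (-3.07 and -3.81), EPHB3 (-2.55 and -2.88) and APCDD1 (-1.87 and -2.37).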

How the data were processed

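The deposited table holds 1 intensity (MAS5 signal, linear, arbitrary units) per probe set and array for 54675 probe sets. MAS5 and GCOS are named, without a version, in the submitters' processing notes. Each deposited array has a mean intensity of 100 over the middle 96% of probe sets, as found from the values. Signals were floored at 1 before taking log2. For each gene the probe set with the highest mean was kept, among 41091 probe sets with 1 symbol. A gene was tested if that mean was at least the median over all probe sets (3.35, a signal of 10.2). Group means of all 12 arrays were fitted with limma 3.58.1 in R 4.3.3 (moderated variances with a trend), and p-values are two-sided. Intervals are at 95%. The 3 arrays per group limit the precision.

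Members and lists were chosen with earlier results of these data known. Signals on every array are given for genes called in both inductions, for the largest called change of each role, and for the smallest adjusted p-values of the other contrasts (6 for the difference of changes, 4 between uninduced lines). Up to 3 genes are named per list and induction. Other probe sets, and DNMT3B, EED, SIRT1, SMARCA4 and ARID1A by array, were described in addition after their values were seen. The steps were tested on simulated data.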

Additional observations from a re-analysis of the deposited data

Results flagged for a closer look

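In 3 genes the change differed between the lines by a test of the difference itself (limma, adjusted over all genes tested). The difference of log2 changes, shRNA minus dominant-negative Tcf4, was -0.37 for HDAC1 (-0.05 and 0.33), -0.72 for SUV39H1 (-1.35 and -0.63) and -0.89 for HELLS (-1.78 and -0.90). Time after induction, construct and line cannot be told apart in these differences.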

How the results depend on the processing

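Counts of genes called among the 42 were 20 and 19 in the inductions, 3 for the difference and 11 between uninduced lines. Without probe sets ending in _x_at or _s_at only 23 genes could be tested, and the counts were 10, 9 and 6 for the inductions and the uninduced lines. The count for the difference was 5 with an offset of 3.5 before log2, 7 with a stricter filter (signal of 78.2, 31 genes tested), 1 without a variance trend and 6 with array weights, which also gave 19 between the uninduced lines. Leaving out 1 array at a time gave 17 to 20, 16 to 20, 2 to 5 and 9 to 14. The count of 5 came without dominant-negative Tcf4 uninduced replicate 3 or induced replicate 2 or 3. The genes and probe sets were kept as chosen on all arrays there. The 1 reversal was RBBP4 between the uninduced lines, at 0.43 with another probe set. Of the called genes, 16 of 20, 15 of 19, 1 of 3 and 7 of 11 kept their call under every alternative that gave them a value. The replicate numbers did not pair the arrays: correlations of same-numbered deviations lay between -0.0348 and 0.0592, and 4 of 12 arrays correlated best with their own number. With the replicate number as a block the counts were 18, 18 and 2, and TET2 (adjusted p = 0.063), SIRT1 (0.057), DNMT3B (0.067) and the difference of HELLS (0.073) were not called.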
